A study of Mus musculus with 6 samples.

Results

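The genes described are 9 members of blood coagulation and its counterpart fibrinolysis, *F3*, *F7*, *F10*, *F5*, *F13a1*, *Thbd*, *Plau*, *Plat* and *Plaur*, of the 18193 gene symbols on the array. They were chosen by name, with earlier results of these data known. Each was followed through every probe set listed under its symbol alone, which gave 14 probe sets of 45037. A probe set is the group of short probes that reads one transcript. Microglia of hSOD1-G93A mice, which carry a high copy number of human SOD1 with the G93A mutation of familial ALS (line B6SJL-Tg(SOD1-G93A)1Gur/J), were compared with those of wild-type male littermates without the transgene. All mice were 90 days old, an early symptomatic age in this line, and were on a B6SJL background. CD11b-positive cells were sorted from lumbar spinal cord (L1 to L5), and RNA was hybridised to 3 Affymetrix whole-genome mouse arrays per genotype. Each array held cells of at least 6 pooled mice, so n counts pools. The p-values set the genotype difference against the spread between pools, each on its own array, and not between mice. CD11b is shared by microglia, monocytes, other macrophages and neutrophils.

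Coagulation starts when tissue factor, the product of *F3*, binds factor VII. Factor X is then activated and, with factor V as cofactor, forms thrombin, which cleaves fibrinogen to fibrin, and factor XIII cross-links the fibrin. Thrombomodulin turns thrombin towards the activation of protein C, an anticoagulant, while the plasminogen activators urokinase (*Plau*) and tissue-type plasminogen activator (*Plat*) form plasmin, which dissolves fibrin. In the nervous system several of these proteins act outside blood: fibrin that leaks into tissue activates microglia through CD11b, and tissue-type plasminogen activator is made by neurones and microglia.

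Values are log2 signals, so a difference of 1 is a doubling, and a probe set passed the test at an adjusted p under 0.05 from limma with Benjamini-Hochberg adjustment over all 45037 probe sets. Urokinase rose in hSOD1-G93A microglia on both of its probe sets, by 1.07 and 0.68, and *F13a1* fell by 0.97. The other 11 probe sets, those of *F3*, *F7*, *F10*, *F5*, *Thbd*, *Plat* and *Plaur*, did not pass. Thus 2 probe sets were higher and 1 lower among 14, against 4.64% of all probe sets in either direction (2.71% higher and 1.93% lower), and 2 of 9 genes had a probe set that passed, against 8.11% of all genes. At an unadjusted p under 0.05 from limma, 8 of the 14 passed, against 19.5% of all probe sets. Since the members were chosen with earlier results of these data known, these shares cannot test whether they change more often than other genes. The median log2 fold change of the 14 was -0.20, that of all probe sets was 0.0032, and 11 of the 14 had a negative value. No filter on low signal was applied, and 3 of the 14 (*F3*, 1 of *F10* and 1 of *Plat*) averaged less than 5, a level close to background.

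**Figure D1:**
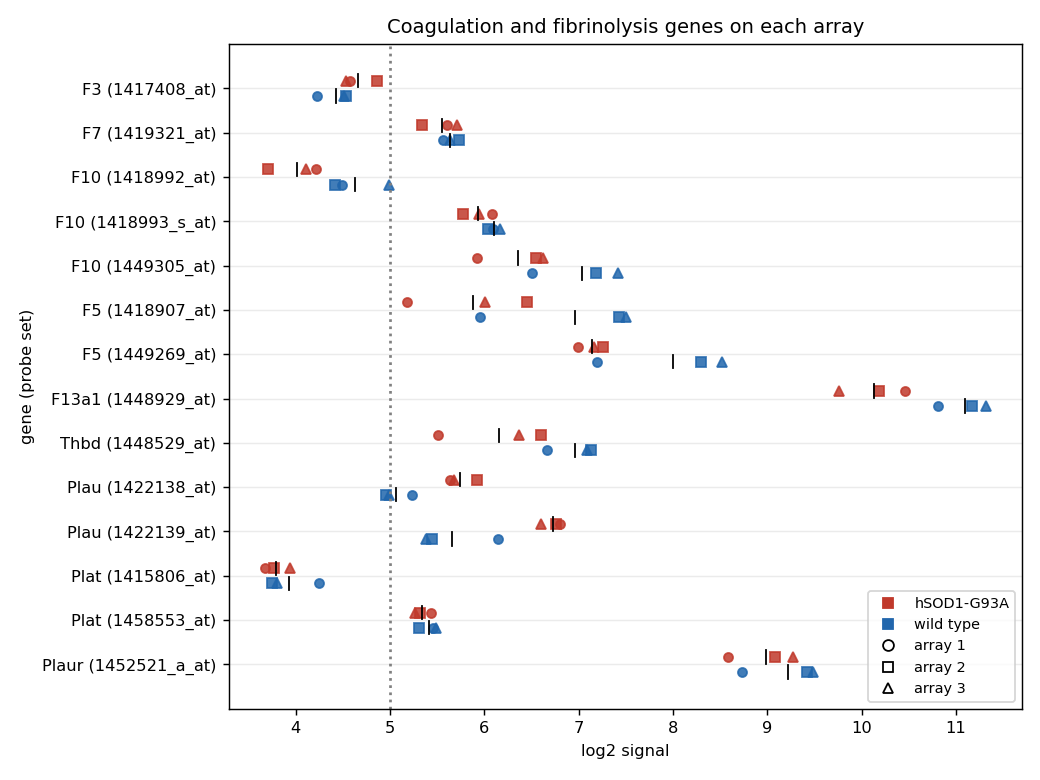
Log2 signal (horizontal axis) of the 14 probe sets on each of 6 arrays, red for hSOD1-G93A and blue for wild type, with the symbol giving the array number, a black bar at each group mean of 3 arrays and a dotted line at 5. The colours are apart for both *Plau* probe sets, for *F13a1*, for *Thbd* and for 1 probe set of *F10*, and in several rows the circles (arrays numbered 1) stand away from the other arrays of their genotype.

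The arrays differed in ways that touch these genes. In a principal component analysis the first component (46.4% of the variance) separated the genotypes, and the second (28.0%) set the arrays numbered 1 of both genotypes, at 35.6 and 34.4, apart from the other 4, at -25.1 to -9.15. Whether these arrays were processed together is not given in the sources used here. The 3' minus 5' difference of the *Gapdh* control probe sets, a measure of RNA and amplification quality, averaged 4.12 (SD 0.59, n = 3) on hSOD1-G93A arrays and 4.89 (SD 0.11, n = 3) on those of wild type. Results were therefore also computed without both arrays numbered 1, where 3796 probe sets (8.43%) passed, and with this difference as a covariate, where 129 (0.286%) did. The targeted gene gives no check of the labels here, since the transgene is human and the probe sets are of mouse sequence.

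Some markers of other CD11b-positive cells passed the test, 3 of 8 for monocytes, 4 of 10 for border macrophages and 1 of 9 for neutrophils, against 4.64% of all probe sets (1.93% lower). Shares of all probe sets include dim ones, while these lists take the brightest probe set of each gene. In fits of 1 probe set a gene and of probe sets with a mean of at least 7, 7.38% and 12.7% passed in either direction. Among microglial markers 1 of 9 rose and 1 fell, and the mean log2 signal of the list was 11.40 to 11.55 in hSOD1-G93A and 11.32 to 11.52 in wild type, with *Cx3cr1* at -0.03 and *Aif1* at 0.34, neither of which passed. Of 8 monocyte markers 3 fell and 0 rose, with list means of 8.96 to 9.57 against 9.71 to 10.28, and *Ccr2*, the receptor that brings monocytes out of bone marrow, fell by 1.22 (adjusted p = 0.0039 from limma). Of 10 markers of border macrophages (those of the meninges and perivascular space) 3 fell and 1 rose, with list means of 8.13 to 8.39 against 8.57 to 8.89, and *Mrc1* and *Cd163* were at -0.71 and -0.84 without passing (-0.69 and -1.33 over arrays 2 and 3, where *Cd163* passed with an adjusted p of 0.00302 from limma). Of 9 neutrophil markers 1 fell, with overlapping list means of 11.07 to 11.82 against 11.62 to 12.54, and *S100a8* and *S100a9*, at -0.34 and -0.38, did not pass. When both arrays numbered 1 were left out, 6 of 8 monocyte, 6 of 10 border macrophage and 6 of 9 neutrophil markers were lower past the test, against 4.35% of all probe sets, and 1 border macrophage marker was higher. The platelet and endothelial marker lists, which bear on clotting genes of blood and vessel wall, had 0 of 8 and 0 of 9 past the test. Their list means were 5.87 to 5.96 against 5.72 to 5.89 and 6.54 to 6.80 against 6.61 to 6.67, the platelet gene *Ppbp* lay below 5, and *Itga2b*, *Pecam1* and *Cldn5* were at -0.05, 0.18 and 0.09. *Pf4*, which the paper lists under platelet degranulation, was counted here among the border macrophage markers. It was lower past the test, at -1.002 (adjusted p = 0.0165 from limma). Markers of astrocytes (4 of 10 lower, list means 6.42 to 7.09 against 7.32 to 8.13), oligodendrocytes (2 of 9 lower, 7.87 to 8.09 against 8.51 to 8.78) and neurones (3 of 10 lower, 4.82 to 5.01 against 5.46 to 5.69) were also lower where they passed. The defining genes *Gfap*, *Aqp4*, *Mbp*, *Snap25* and *Rbfox3* were at 0.33, -1.08, -1.16, -1.05 and -0.01 on their brightest probe sets, of which that of *Mbp* passed and that of *Snap25* lay below 5. The paper reports more CD11b-positive cells in hSOD1-G93A than in control cords. In bulk RNA of sorted cells, fewer cells of a type, a smaller share of them among more sorted cells, and less RNA per cell cannot be told apart. The part of these cell types in the results on clotting genes was not tested.

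Of the genes that begin coagulation, none passed the test. *F3*, tissue factor, had log2 signals of 4.57, 4.87 and 4.53 on hSOD1-G93A arrays 1 to 3 and 4.23, 4.53 and 4.51 on wild-type arrays 1 to 3. The values overlapped and all lay below 5, so this probe set says little about the gene (log2 fold change 0.24, 95% interval -0.07 to 0.54, adjusted p = 0.396 from limma). *F7*, the partner of tissue factor, was at 5.60, 5.34 and 5.71 in hSOD1-G93A and 5.56, 5.73 and 5.64 in wild type. Its arrays overlapped fully, and the difference of -0.09 had an interval of -0.37 to 0.19 (adjusted p = 0.763 from limma).

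*F5* encodes factor V, the cofactor that speeds thrombin formation by factor X. Its probe set 1449269_at was at 7.0, 7.26 and 7.16 in hSOD1-G93A and at 7.19, 8.30 and 8.52 in wild type. Wild-type array 1 lay within the hSOD1-G93A values, and the other 2 wild-type arrays lay over 1 log2 unit above them. The difference of -0.87 (interval -1.54 to -0.19) did not pass with all 6 arrays (adjusted p = 0.146 from limma), and without wild-type array 1 it was -1.27 (adjusted p = 0.0031). The other probe set, 1418907_at, was at 5.18, 6.46 and 6.01 against 5.96, 7.43 and 7.50, a difference of -1.08 (interval -2.06 to -0.10, adjusted p = 0.21 from limma). Here array 1 was the lowest in both genotypes. When both arrays numbered 1 were left out, the probe sets of *F5* were lower by 1.20 and 1.23 and both passed (adjusted p = 0.000688 and 0.00145 from limma).

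*F10* encodes factor X, the protease that cuts prothrombin, and its 3 probe sets were all lower on average without passing. Probe set 1449305_at was at 5.92, 6.55 and 6.62 in hSOD1-G93A and 6.51, 7.19 and 7.42 in wild type. The groups overlapped through wild-type array 1 alone (difference -0.67, interval -1.25 to -0.09, adjusted p = 0.185 from limma). Probe set 1418992_at was at 4.22, 3.71 and 4.11 against 4.49, 4.42 and 4.99, apart between the genotypes but below 5 (difference -0.62, adjusted p = 0.101 from limma). The remaining one, 1418993_s_at, differed by -0.17 (interval -0.42 to 0.09, adjusted p = 0.489). Without both arrays numbered 1 1449305_at and 1418992_at passed, at -0.72 and -0.80 (adjusted p = 0.0105 and 0.0359 from limma), and 1418993_s_at did not (-0.24, adjusted p = 0.343).

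*F13a1* encodes the A subunit of factor XIII, the transglutaminase that cross-links fibrin, and is known as a gene of monocytes and tissue macrophages. Its log2 signal was 10.46, 10.19 and 9.76 on hSOD1-G93A arrays 1 to 3 and 10.81, 11.17 and 11.32 on wild-type arrays 1 to 3. The groups were apart, with array 1 the highest in hSOD1-G93A and the lowest in wild type, and the means were 10.13 ± 0.35 (SD, n = 3) and 11.10 ± 0.26 (SD, n = 3). *F13a1* fell by 0.97 on the log2 scale, or 1.95-fold (standard error 0.20, interval -1.41 to -0.52, adjusted p = 0.0306 from limma). Without both arrays numbered 1 the difference was -1.27 (adjusted p = 0.00123), which is larger than with them. It missed the test without hSOD1-G93A array 2 (-0.99, adjusted p = 0.097) or 3 (-0.78, 0.0942) and without wild-type array 2 (-0.93, 0.102) or 3 (-0.85, 0.116), and with the *Gapdh* covariate it was -0.58 (adjusted p = 0.306). Of all probe sets, 1.06% to 1.45% passed in these fits without 1 array and 0.286% with the covariate, against 4.64% in the main fit. Monocyte and border macrophage list means were apart between the genotypes in the same direction as *F13a1*, at the values given above, with 3 of 8 and 3 of 10 markers lower past the test with all arrays and 6 of 8 and 6 of 10 over arrays 2 and 3. Their part in its fall was not tested. The paper also lists factor XIII A under platelet degranulation, and the part of platelets was not tested either.

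Since probe sets of *F5*, *F10* and *F13a1* were lower past the test without both arrays numbered 1, their promoters are shown, from the RefSeq table on build GRCm38.p6, 5′ to 3′ on the strand of the gene, from 250 bases before to 50 after the start. Capitals mark matches, on either strand, to AGGAAG, a core letter run of ETS factors such as PU.1, the factor that specifies myeloid cells.
F13a1, one start, chr13:37049164-37049463, strand -: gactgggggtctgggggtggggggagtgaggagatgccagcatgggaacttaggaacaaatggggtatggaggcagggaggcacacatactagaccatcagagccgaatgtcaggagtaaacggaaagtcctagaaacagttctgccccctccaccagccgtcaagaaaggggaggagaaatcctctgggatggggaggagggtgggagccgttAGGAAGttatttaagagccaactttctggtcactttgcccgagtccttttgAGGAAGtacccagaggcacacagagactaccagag
F13a1, another start, chr13:37050195-37050494, strand -: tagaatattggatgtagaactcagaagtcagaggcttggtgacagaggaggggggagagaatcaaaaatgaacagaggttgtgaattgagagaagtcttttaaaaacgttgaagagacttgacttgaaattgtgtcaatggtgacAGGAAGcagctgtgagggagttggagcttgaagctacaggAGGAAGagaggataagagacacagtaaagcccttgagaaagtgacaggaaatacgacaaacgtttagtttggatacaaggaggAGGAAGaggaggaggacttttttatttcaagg
F5, chr1:164151585-164151884, strand +: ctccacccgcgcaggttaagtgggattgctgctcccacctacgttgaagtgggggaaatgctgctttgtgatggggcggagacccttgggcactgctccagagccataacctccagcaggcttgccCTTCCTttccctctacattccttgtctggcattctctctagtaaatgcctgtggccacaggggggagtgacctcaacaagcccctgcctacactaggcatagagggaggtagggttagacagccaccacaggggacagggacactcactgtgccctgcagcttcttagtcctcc
F10, chr8:13037058-13037357, strand +: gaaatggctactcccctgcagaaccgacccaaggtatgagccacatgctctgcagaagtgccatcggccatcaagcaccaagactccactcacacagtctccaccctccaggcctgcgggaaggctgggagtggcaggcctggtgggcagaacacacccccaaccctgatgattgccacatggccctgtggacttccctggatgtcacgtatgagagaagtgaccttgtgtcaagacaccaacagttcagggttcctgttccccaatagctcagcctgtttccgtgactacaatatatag
The table held 6 of the 9 genes and not *Plau*, *Plat* and *Thbd*. AGGAAG or its reverse complement CTTCCT was found 2 and 3 times at the starts of *F13a1*, 1 time in *F5*, 2 times in *Plaur* and 0 times in *F10*, *F3* and *F7*, and 35.4% of 32851 promoters of this length hold it. The AP-1 letters TGANTCA, which read the same on both strands, were found 2 times in *F3* and 1 time in *Plaur* (7.81% of promoters), and GGGCGG or CCGCCC, a GC box, 3 times each in *F3* and *Plaur* and 1 time in *F5* (35.7%). A match is a run of letters and not a site shown to be used.

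*Thbd* encodes thrombomodulin, which binds thrombin at the cell surface and takes it from clotting to the activation of protein C. Its log2 signal was 5.51, 6.60 and 6.36 in hSOD1-G93A and 6.67, 7.13 and 7.09 in wild type. All hSOD1-G93A arrays lay below all wild-type arrays, the nearest pair by less than 0.1, and hSOD1-G93A array 1 stood lowest. The difference of -0.80 (interval -1.40 to -0.21) did not pass (adjusted p = 0.127 from limma). Over arrays 2 and 3 it was -0.63 and passed (adjusted p = 0.0191). In all, the groups were apart for 2 probe sets with higher and 3 with lower signal in hSOD1-G93A (the pair of *Plau*, and *F13a1*, *Thbd* and 1418992_at of *F10*), while 13.4% and 11.3% of all probe sets were apart in these directions.

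*Plau*, urokinase, converts plasminogen to plasmin at the cell surface and was the one member that rose. Probe set 1422139_at was at 6.81, 6.76 and 6.61 on hSOD1-G93A arrays 1 to 3 and at 6.15, 5.44 and 5.38 on wild-type arrays 1 to 3. The groups were apart, and wild-type array 1 lay nearest to the hSOD1-G93A values. Means were 6.73 ± 0.10 (SD, n = 3) and 5.66 ± 0.43 (SD, n = 3), a 2.10-fold rise (log2 fold change 1.07, standard error 0.20, interval 0.62 to 1.51, adjusted p = 0.0215 from limma). Probe set 1422138_at was at 5.64, 5.92 and 5.68 against 5.24, 4.96 and 4.99, also apart, and rose 1.60-fold (0.68, standard error 0.13, interval 0.39 to 0.97, adjusted p = 0.0223 from limma). Without both arrays numbered 1 the rises were 1.27 and 0.82 (adjusted p = 0.000414 and 0.00532), so both probe sets moved the same way with and without these arrays.

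The 2 probe sets of *Plau* missed the test in the same 4 of 6 fits without 1 array as *F13a1* did. In these 4 fits 1.06% to 1.45% of all probe sets passed, against 4.64% with all arrays. Without hSOD1-G93A or wild-type array 1, where the calls were kept, 4.25% and 4.87% did. For 1422139_at and 1422138_at in turn, the values were 1.05 and 0.59 without hSOD1-G93A array 2 (adjusted p = 0.0851 and 0.0854 from limma) and 1.13 and 0.72 without array 3 (0.0705 and 0.0753). They were 0.96 and 0.63 without wild-type array 2 (0.0813 and 0.0851) and 0.93 and 0.65 without array 3 (0.0858 and 0.0921). With the *Gapdh* covariate the rises were 1.29 and 0.73 and did not pass (adjusted p = 0.106 and 0.151). None of the markers in the platelet and endothelial lists passed, at the list means given above.

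*Plaur*, the cell surface receptor that holds urokinase, was at 8.58, 9.09 and 9.28 in hSOD1-G93A and at 8.74, 9.43 and 9.49 in wild type. The groups overlapped, array 1 was lowest in both, and the difference was -0.23 (interval -0.76 to 0.30, adjusted p = 0.655 from limma). *Plat*, tissue-type plasminogen activator, was measured near background on 1415806_at (3.68, 3.77 and 3.94 against 4.25, 3.75 and 3.80) and at 5.43, 5.32 and 5.26 against 5.46, 5.31 and 5.49 on 1458553_at. The intervals of its differences were -0.48 to 0.21 and -0.32 to 0.16 (adjusted p = 0.691 and 0.754 from limma). Probe set 1415806_at, below 5, says little about the gene. Whether the change of *Plau* differs from those of *Plaur* and *Plat* was not tested.

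**Figure D2:**
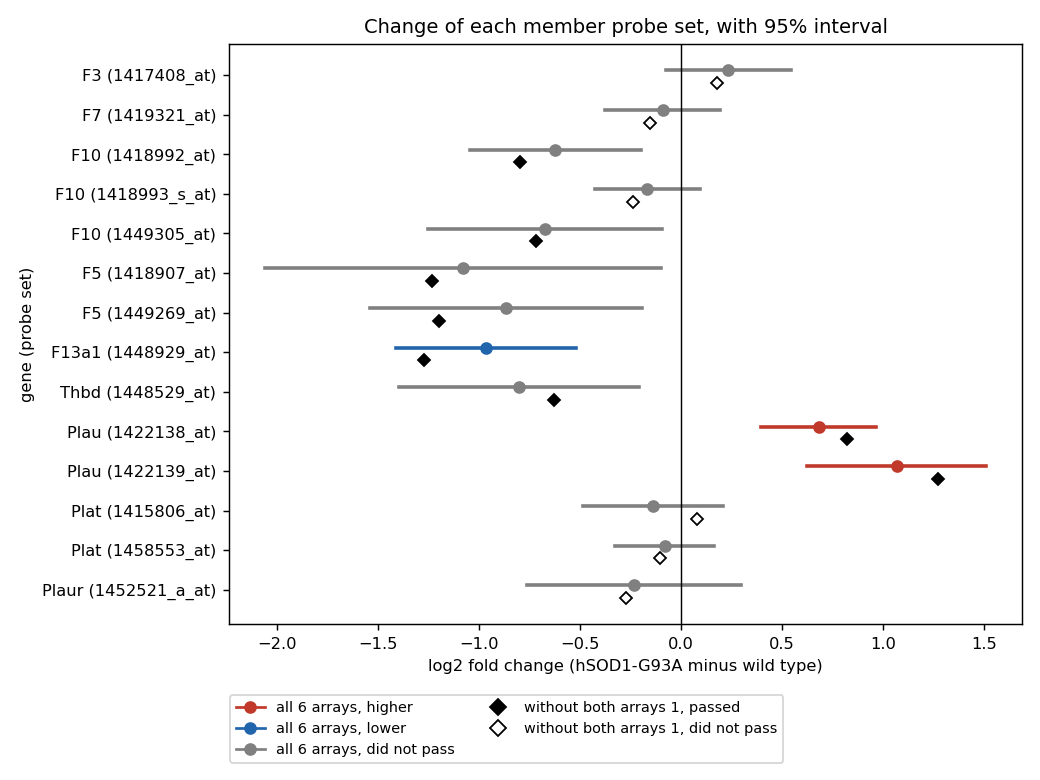
Log2 fold change between genotypes, as hSOD1-G93A minus wild type (horizontal axis), of the 14 probe sets: circles with 95% intervals are from all 6 arrays, red for higher, blue for lower and grey for not past the test, and diamonds are from the 4 arrays left without both numbered 1, filled where the test was passed. The circles of *Plau* (1.07 and 0.68) lie right of 0 and that of *F13a1* (-0.97) left of it, and filled diamonds stand also at *F5*, *Thbd* and 2 probe sets of *F10*.

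Without both arrays numbered 1, 8 member probe sets of 5 genes passed, 2 of them higher (*Plau*) and 6 lower (*F13a1*, both of *F5*, 2 of *F10* and *Thbd*), against 4.07% and 4.35% of all probe sets. This fit rests on 2 arrays per genotype. In the same fit 6 of 8 monocyte, 6 of 10 border macrophage, 6 of 9 neutrophil and 7 of 10 astrocyte markers were lower past the test, beside the lower calls of *F13a1*, *F5*, *F10* and *Thbd*, and their part in these was not tested. With limma's array weights, which give less weight to arrays that vary more, 5 passed, 2 higher and 3 lower (*F13a1*, 1449269_at of *F5* and 1418992_at of *F10*), against 4.37% and 3.51% (7.88% in either direction). With wild-type array 1 alone left out, 2 were higher and 4 lower (*F13a1*, both of *F5* and 1449305_at of *F10*), against 2.26% and 2.62%. By the fold and unadjusted p threshold of the study's methods, the methods' t-test called *F13a1* and 1422139_at of *Plau* (1.77% of all probe sets), and limma called these and both probe sets of *F5* (2.40%). *F3*, *F7*, *Plat*, *Plaur* and 1418993_s_at of *F10* passed in none of these fits.

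The other genes of coagulation and fibrinolysis were taken from a list of 46, of which 41 were measured by 62 probe sets, 25 of them with a mean below 5. On this list 3 genes rose (*Vkorc1*, *F9* and *Plgrkt*), 2 fell (*S100a10* and *Anxa2*) and 36 did not pass, or 3 probe sets higher and 3 lower against 2.71% and 1.93% of all. The median log2 fold change of the 62 was 0.10. Over arrays 2 and 3, 10 of the 62 probe sets were higher and 3 lower, against 4.07% and 4.35% of all probe sets.

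Of 24 probe sets of 17 clotting factors, fibrinogen chains and genes for making them, 2 rose and 0 fell, with a median of 0.21. *Vkorc1*, which recycles the vitamin K needed to make factors VII, IX and X, was at 10.997, 11.16 and 11.03 in hSOD1-G93A and 10.25, 10.22 and 10.10 in wild type. The groups were far apart, and the rise was 0.87 ± 0.11 (standard error; limma's adjusted p = 0.0046). *F9*, factor IX, which activates factor X, was at 6.60, 6.71 and 6.74 against 6.19, 5.74 and 6.03, also apart, a rise of 0.70 ± 0.13 (standard error; limma's adjusted p = 0.025). *Mcfd2* and *Lman1*, whose products carry factors V and VIII out of the endoplasmic reticulum, had differences of 0.54 (adjusted p = 0.101 from limma) and, on the probe set of largest difference, 0.54 (0.0739), and neither passed. The other 4 probe sets of *Lman1* were at 0.49, 0.18, 0.12 and -0.32, the last with the genotypes apart in the other direction. *Vwf*, which binds platelets to vessel wall, was at 0.71 (0.29) and *Fgl2*, a prothrombin-cleaving protein of macrophages, at 0.59 (0.239) on the larger of its values.

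Of 14 probe sets of 10 clotting inhibitors none passed, with a median of 0.17, and 7 lay below 5. The 4 probe sets of *Tfpi*, the inhibitor of tissue factor with factor VII, were at 0.83, 0.66, 0.50 and 0.32. The genotypes were apart on all 4, as they were in this direction for 13.4% of all probe sets, and the 4 read the same gene. The probe set of largest difference, at 7.52, 7.97 and 8.27 against 6.91, 7.35 and 7.03, had an adjusted p of 0.0511 from limma. Over arrays 2 and 3, 3 of the 4 passed (0.93, 0.90 and 0.64, adjusted p = 0.00601, 0.00857 and 0.0147 from limma). In that fit 4.07% of all probe sets were higher past the test. Of 5 probe sets of 3 thrombin and protease receptors none passed, with a median of 0.25. *F2r*, the main thrombin receptor, was at 8.66, 10.11 and 9.96 in hSOD1-G93A and 8.65, 8.15 and 8.33 in wild type on 1437308_s_at. hSOD1-G93A array 1 lay just above the wild-type arrays while the other 2 were over 1 log2 unit higher, and the difference of 1.20 had an adjusted p of 0.086 with all arrays and was 1.79 (8.54e-05) without both arrays numbered 1.

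Of 13 probe sets of 7 genes for plasminogen and its binding to cells, 1 rose and 3 fell, with a median of -0.20. *Plgrkt*, a plasminogen receptor of macrophages, was at 9.0, 9.41 and 9.54 against 8.15, 8.37 and 8.39, apart between the genotypes, and the rise was 1.01 ± 0.15 (standard error; limma's adjusted p = 0.0114). *S100a10*, which with annexin A2 forms another plasminogen-binding complex, was at 8.74, 8.57 and 8.58 against 9.76, 9.91 and 9.83 on 1456642_x_at and fell by 1.21 (standard error 0.11, adjusted p = 0.0013 from limma). It also fell by 0.64 on 1416762_at (adjusted p = 0.032), and the third probe set, at -0.24, did not pass. *Anxa2* fell by 0.63 on 1437692_x_at (adjusted p = 0.0239 from limma), while another probe set was at -0.50 (0.451) and the remaining one, at 0.01, lay below 5. The probe set that fell had a mean signal of 5.44. The one at -0.50 was the brightest of the gene, at 9.78, and its genotypes overlapped. By RNA signal, genes whose products bring plasminogen to the cell surface thus moved both ways, with *Plgrkt* higher and 2 of 3 probe sets of *S100a10* and 1 of 3 of *Anxa2* lower. Of 6 probe sets of 4 inhibitors of fibrinolysis none passed, with adjusted p of 0.216 to 0.994 from limma.

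**Figure D3:**
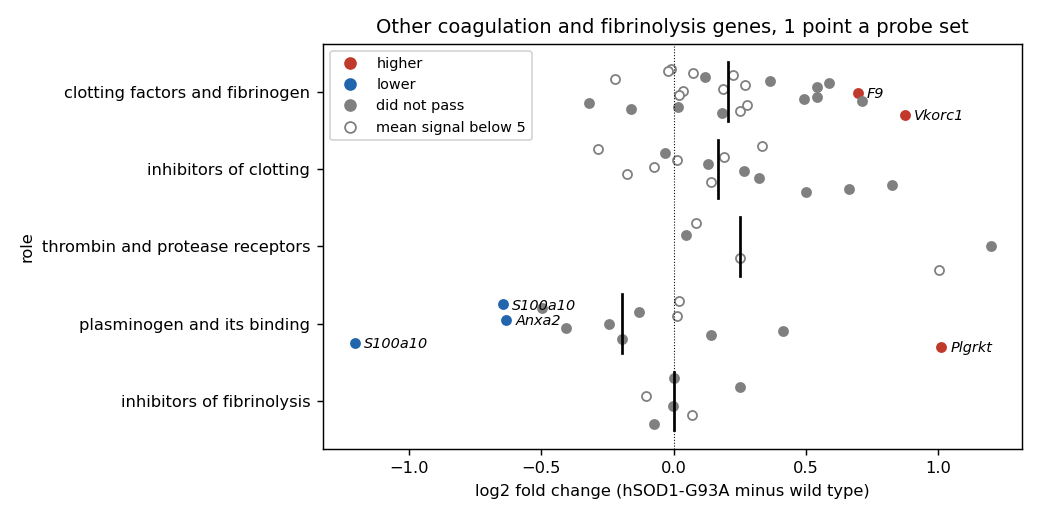
Log2 fold change between genotypes, as hSOD1-G93A minus wild type (horizontal axis), of 62 probe sets of 41 other coagulation and fibrinolysis genes by role (vertical axis), 1 point a probe set, red for higher, blue for lower, grey for not past the test, open where the mean signal is below 5, with a black line at the median. *Vkorc1*, *F9* and *Plgrkt* stand to the right and *S100a10* (2 probe sets) and *Anxa2* to the left, and no inhibitor is coloured.

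The genes most like the called members over the 6 arrays were sought among the brightest probe sets of 14055 genes, as a description over points that share arrays and genotype. For *Plau* 1422139_at they were *Afp*, *Mrpl16* and *Tmem107* (Pearson's r of 0.999, 0.996 and 0.991), and for 1422138_at they were *Apbb2*, *Bag1* and *Sh3pxd2b* (0.998, 0.997 and 0.995). For *F13a1* they were *Il6ra*, *Dgkd* and *Cntrl* (0.997, 0.993 and 0.990). The probe sets of *Plau* thus shared none of their 3 nearest genes. Members that did not pass had nearest genes at similar r, such as 0.992 for *F3* and 0.991 for *Plat* 1458553_at. An r this high therefore does not set the called members apart.

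**Figure D4:**
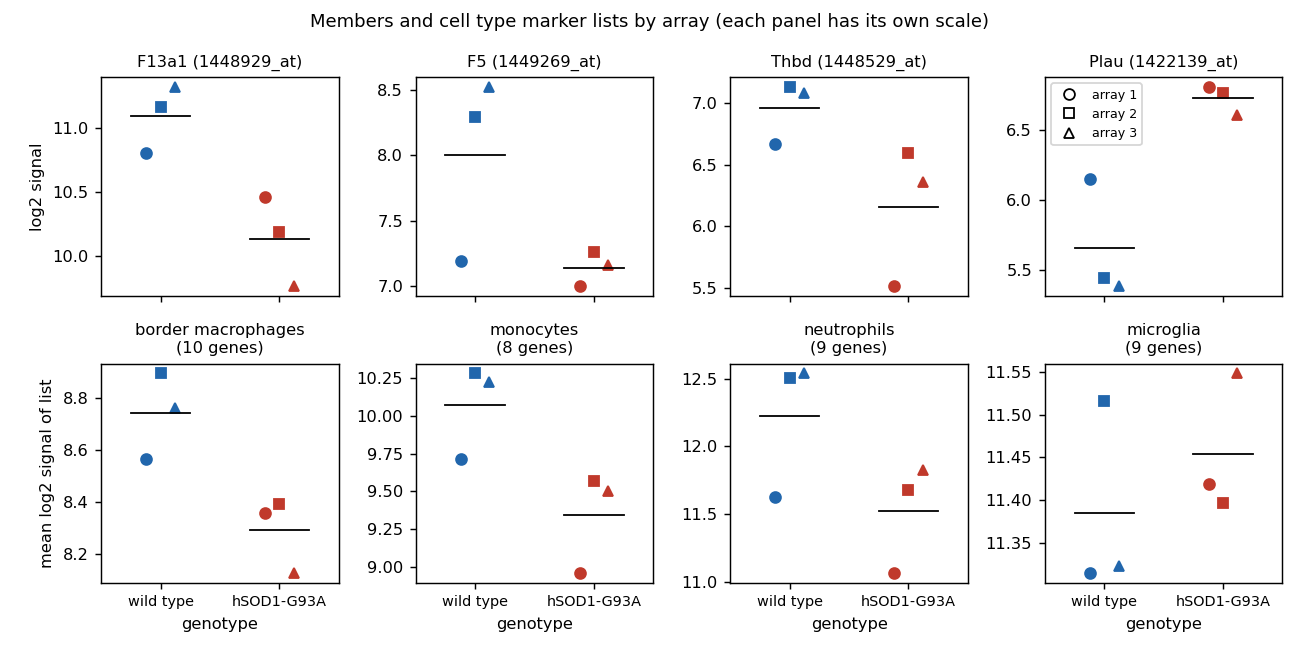
Log2 signal of 4 member probe sets (upper panels) and mean log2 signal of 4 marker lists (lower panels) on each array, blue for wild type and red for hSOD1-G93A, with a line at each group mean of 3 arrays and a scale of its own in each panel. *F13a1*, the border macrophage list and the monocyte list are apart between the genotypes and lower in hSOD1-G93A, *Plau* is apart and higher, and the microglial list overlaps (11.40 to 11.55 against 11.32 to 11.52).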

How the data were processed

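Microglial RNA was measured on 3 hSOD1-G93A and 3 wild-type arrays. The deposited table holds 1 log2 signal for each probe set and array, which the authors' notes credit to RMA (background correction, quantile normalisation and summary of probes) in Partek, with no versions. The paper's methods name MAS 5.0 and its detection calls instead. Array medians of 5.93 to 5.97 and the range of the values were checked against the log2 unit. The labels give a standard preparation from 6 ug of RNA, while the methods describe a double amplification of a small amount, which can shorten the transcripts read.

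Probe sets were named from the platform table (34945 with 1 symbol, 932 with several, 9160 with none). The Entrez identifiers of all 14 member probe sets had the same symbol in RefSeq. Genotype was tested in R 4.3.3 by lmFit and eBayes of limma 3.58.1, two-sided, over the 45037 probe sets that are not controls, of which 14321 had a mean below 5. The 9 members and the lists of other genes and markers were chosen with earlier results of these data known. Genes named are all members, listed pathway genes with a probe set past the test, the 6 others with the largest absolute difference at a mean of at least 5, the defining markers, *Pf4*, and the 3 genes most correlated with each called member probe set. Of the pathway list, 5 genes have no probe set of their own symbol in the table and are not analysed here. A marker list takes 1 probe set a gene, that of highest mean signal, and its defining genes are given on the same probe set.

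In simulated arrays, 3 against 3, the test found 6 of 50 probe sets that changed 1.5-fold, 40 of 50 that changed 2-fold and all of those that changed 4-fold or 8-fold, with 5 false calls among 44837. The simulated noise was independent between arrays and probe sets. It held no shared shift of the arrays numbered 1 and no 3' minus 5' difference between genotypes. The shares found therefore need not hold for the real arrays. The number of arrays limits the precision. Alternatives were the methods' t-test (unequal variance), a t-test of equal variance, robust eBayes with a trend, array weights, the *Gapdh* 3' minus 5' covariate, a replicate block, minimum means of 5 and 7, centred or requantiled arrays, other choices of probe set, and arrays left out. Summaries, letter searches and figures used Python 3.11.15, pandas 2.3.3, numpy 2.4.6 and, for plots, matplotlib 3.10.9.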

Additional observations from a re-analysis of the deposited data

How the results depend on the processing

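Of 254 values of member probe sets under other settings, 214 kept direction and call, 21 lost and 15 gained a call, and 4 turned direction, none of the last past the test: *F7* to 0.016 without hSOD1-G93A replicate 2 (-0.17 at the other end without 1 array), *Plat* 1415806_at to 0.079 without both arrays numbered 1 and to 0.019 without wild-type replicate 1 (-0.23 at the other end), and *Plat* 1458553_at to 0.034 with the *Gapdh* covariate. *Plau* (0.68 and 1.07) and *F13a1* (-0.97) passed neither t-test, and with the *Gapdh* covariate they were at 0.73, 1.29 and -0.58 without passing. The methods' t-test gave 0 of all 45037 probe sets after adjustment and 3 of 14 members at an unadjusted p under 0.05.

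Member probe sets past the test, 3 with all arrays, were 0 with the *Gapdh* covariate and by each t-test, 5 with array weights, 1 at a minimum mean of 7, where *Plau* was not testable, 8 without both arrays numbered 1 and 0 to 6 without 1 array. Member genes, 2 with all arrays, were 0, 4, 1, 5 and 0 to 4 in the same order. Of all probe sets tested, 4.64% passed with all arrays, 0.286% with the covariate, 0.00% by the methods' t-test and 0.0289% by the other. Shares were 7.88% with weights, 12.7% at a minimum mean of 7, where 3 member probe sets were tested, and 8.43% without both arrays numbered 1. Without 1 array they ranged from 1.06% to 4.87%. Pathway probe sets, 6 with all arrays, were 1 with the covariate, 0 by each t-test, 13 with weights, 13 without both arrays numbered 1 and 2 to 9 without 1 array, and pathway genes, 5 with all arrays, were 1, 0, 9, 9 and 2 to 8. Without 1 array, *F13a1* ranged from -1.13 to -0.78, *Plau* 1422138_at from 0.59 to 0.77 and 1422139_at from 0.93 to 1.31, and without wild-type replicate 1 the 6 passing were these, both of *F5* and 1449305_at of *F10*. The causes of these moves were not tested.

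Groups were matched by litter according to the methods, but no source ties a replicate number to a litter, and the numbers were not taken to pair the arrays, since the deviations of same-numbered arrays correlated at 0.44, 0.24 and 0.03, and hSOD1-G93A array 3 correlated best with wild-type array 2 (0.40). With the replicate number as a block, 8 member probe sets of 5 genes passed (*F5*, adjusted p = 0.00226 and 0.0214 from limma, *F10*, 0.0205 and 0.00593, *Thbd*, 0.00666, *F13a1* and both of *Plau*), as did 16 pathway probe sets of 10 genes and 4519 of all 45037.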
